A study of Mus musculus with 11 samples.

Results

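Branched-chain amino acid breakdown was followed in irradiated mouse small cell lung cancer (SCLC) cells through 8 genes: the aminotransferases Bcat1 and Bcat2, the ketoacid dehydrogenase subunits Bckdha, Bckdhb, Dbt and Dld, the kinase Bckdk and the phosphatase Ppm1k. These 8 were chosen by name out of 35056 genes with a transcript in the files, of which 14106 had enough reads to be tested, all 8 among them. They were proposed with their measured values in this same comparison known, so those values are given as a description and support nothing. KP1 is a single Rb and p53 mutant mouse SCLC line grown in RPMI-1640 medium with serum and transplanted in other experiments of the study. The 2 control libraries (numbered 2 and 3) came from untreated KP1 cells, and the 3 irradiated libraries (numbered 1 to 3) from KP1 cells collected 24 h after a single dose of 5 Gy. Both groups carry the same mutations and growth conditions. The comparison asks what irradiation does to the transcripts of the cancer cells themselves. Nothing in the labels says that the libraries of a group came from separate cultures, so their spread may be partly technical.

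Leucine, isoleucine and valine are broken down in shared opening steps. An aminotransferase first moves the amino group to 2-oxoglutarate, giving glutamate and a branched-chain ketoacid. BCAT1 does this in the cytosol and BCAT2 in mitochondria. The branched-chain ketoacid dehydrogenase complex then removes carbon dioxide irreversibly: its E1 enzyme is built from an alpha subunit (BCKDHA) and a beta subunit (BCKDHB), its E2 core is DBT, and its E3 enzyme, DLD, is shared with the pyruvate and 2-oxoglutarate dehydrogenases and the glycine cleavage system. BCKDK phosphorylates the E1 alpha subunit and turns the complex off, and PPM1K removes that phosphate. Separate enzyme sets then carry the leucine, isoleucine and valine products to acetyl-CoA, acetoacetate and propionyl-CoA. BCAT1 is expressed in many tumors.

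The libraries held 21185956 to 31036317 reads. Control reads fell on longer transcripts: the average read came from a transcript of 5463 and 4729 bases in the controls and of 3625 to 3998 bases after irradiation. Of all tested genes, 12.7% were called higher and 13.0% lower in irradiated cells at an adjusted p under 0.05 (edgeR quasi-likelihood test, Benjamini-Hochberg over all tested genes). Both groups carried the markers of this tumor. Chga, which encodes the secretory granule protein chromogranin A, was at 371.9 and 322.2 CPM (counts scaled to the size of the library) in control and 291.5 to 472.3 CPM in irradiated libraries. All 8 neuroendocrine or epithelial markers were detected, with 4 (Syp, Uchl1, Calca and Epcam) called higher and 1 (Ncam1) called lower in edgeR. With each library's trend along transcript length removed (length-trend offsets, below), 0 of the 8 were called in either direction. That fit called 2.41% of all tested genes higher and 1.81% lower. At an unadjusted p under 0.05 in that edgeR fit, 3 of the 8 were higher and 1 lower. Among 7 markers of leukocytes, fibroblasts and endothelium, 3 had enough reads to be tested and none was called (0 in edgeR at an unadjusted p under 0.05 and 0 in DESeq2, while Cd68 and Pecam1 were called lower on log2(TPM + 1) with limma). Their summed level was 19.4 and 7.73 TPM (an abundance scaled for transcript length, with the same total in each library) in controls 2 and 3 and 1.69 to 1.99 TPM in irradiated libraries. Of this, Col1a1 alone gave 13.5 TPM in control 2, from 33 reads. Adgre1 had no read in 4 of the 5 libraries. The part of these differences in the results that follow was not tested.

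Among the 8 genes, Bckdha stood apart from the others. It was 3.15-fold higher in irradiated cells (95% interval 2.39 to 4.15). The other 7 lay between 0.820-fold (Ppm1k) and 1.34-fold (Bcat2), and each of their intervals reached or crossed 1. At an adjusted p under 0.05, 1 of the 8 was called higher and 0 lower, beside 12.7% and 13.0% of all tested genes. The lower count was also 0 at an unadjusted p under 0.05 in edgeR and 0 in DESeq2. At the larger change the study required, a log2 fold change above 1.5, Bckdha was still the 1 gene called, beside 1.63% of all tested genes. The adjusted p under 0.05 used there was that of edgeR, while the study corrected p with Independent Hypothesis Weighting. The median log2 fold change was 0.14 over the 8 genes and 0.02 over all tested genes. Nothing is read from these counts, since the comparison chose the genes.

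**Figure D1:**
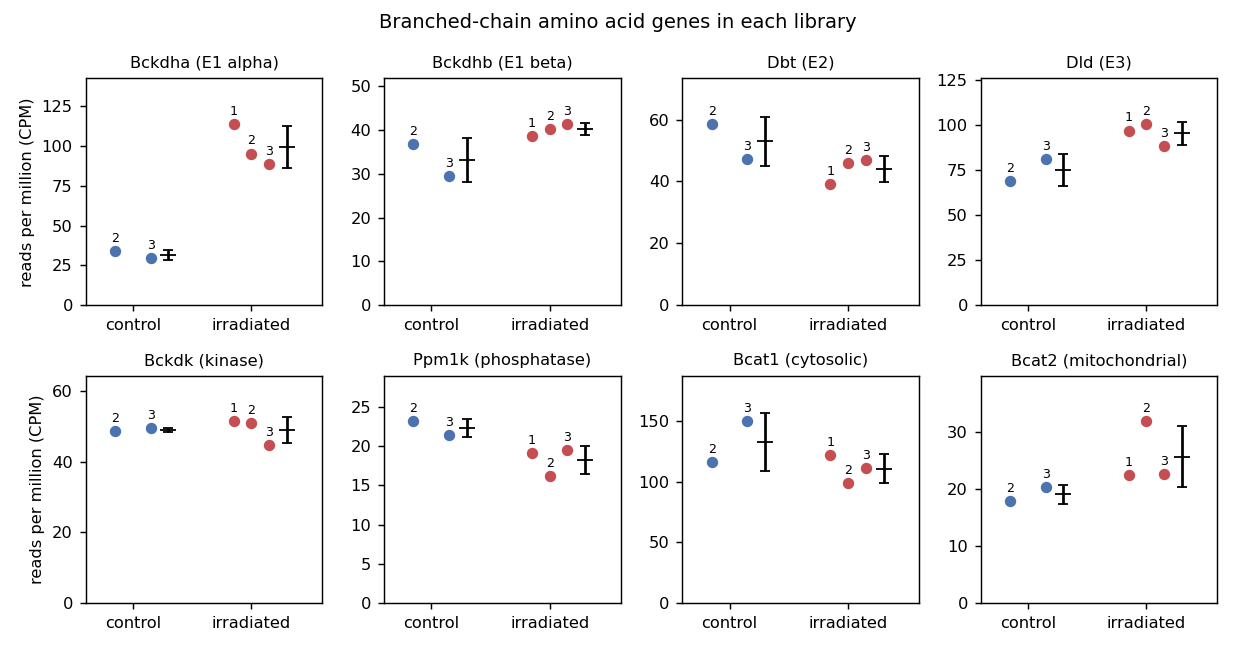
Normalised read counts (CPM) of each of the 8 genes in the 2 control (blue) and 3 irradiated (red) libraries, each point marked with its replicate number, with the mean and SD of the group as a black bar and the axis starting at 0. Bckdha is at 29.4 and 33.8 CPM in control and 88.9 to 114 CPM in irradiated libraries, while the groups lie close to each other or overlap for the other genes.

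Bckdha (ENSMUSG00000060376, chr7:25629946-25658981, minus strand, GRCm38) encodes the E1 alpha subunit, the part of the complex that carries the regulatory phosphate. It had 33.8 and 29.4 CPM in controls 2 and 3 and 114, 95.3 and 88.9 CPM in irradiated libraries 1, 2 and 3. Every irradiated library was above both controls, by far more than the libraries of either group differed among themselves. The group means were 31.6 ± 3.09 CPM (SD, n = 2) and 99.4 ± 13.0 CPM (SD, n = 3). The log2 fold change was 1.65 with a standard error of 0.17 and an adjusted p of 0.008247 in edgeR, which placed it at rank 356 of all tested genes by fold change. All its reads were assigned to a single coding transcript of 1899 bases in every library. The 3′ part of the gene shares 1171 exonic bases with B3gnt8 on the opposite strand. B3gnt8 was assigned 46 and 19 reads in controls 2 and 3 and 21 to 26 reads in irradiated libraries, against 965 and 784 and then 2087 to 2863 for Bckdha.

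Bckdhb (ENSMUSG00000032263, chr9:83925145-84124240, plus strand) encodes the beta subunit that pairs with BCKDHA in E1. It had 36.7 and 29.5 CPM in control and 38.7, 40.3 and 41.4 CPM in irradiated libraries. The irradiated values were all above the controls, but the nearest values of the groups lay closer together than the controls did. The log2 fold change was 0.28 with a standard error of 0.16 and an adjusted p of 0.2331 in edgeR.

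Dbt (ENSMUSG00000000340, chr3:116513070-116549981, plus strand) encodes the E2 core, which passes the acyl group to coenzyme A. It had 58.6 and 47.3 CPM in control and 39.0, 46.0 and 46.9 CPM in irradiated libraries. All irradiated values lay below the controls, the nearest by a margin far smaller than the gap between the controls. The log2 fold change was −0.27 with a standard error of 0.17 and an adjusted p of 0.2531 in edgeR.

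Dld (ENSMUSG00000020664, chr12:31331277-31351453, minus strand) encodes E3, which reoxidizes the lipoyl arm of E2. It had 68.8 and 81.1 CPM in control and 96.8, 100.5 and 88.4 CPM in irradiated libraries. The groups did not overlap. The log2 fold change was 0.34 with a standard error of 0.15, its 95% interval ran from −0.000662 to 0.69, and the adjusted p was 0.1225 in edgeR.

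Read per unit of length, the order of the subunits differed between the groups. In control cells Bckdha was the lowest of the 4 subunits at 36.1 ± 2.74 TPM (SD, n = 2), below Dbt at 52.2 ± 4.72, Bckdhb at 53.6 ± 5.37 and Dld at 73.4 ± 0.565 TPM. Dbt and Bckdhb did not differ beyond their spread. In irradiated cells Bckdha was the highest at 93.3 ± 12.1 TPM (SD, n = 3), above Dld at 66.0 ± 1.33, Bckdhb at 52.6 ± 2.52 and Dbt at 31.8 ± 0.614 TPM. The spreads of these irradiated values did not overlap. These levels add up the TPM of all transcripts of a gene, in which short transcripts weigh heavily: Dbt-203, of 446 bases, took 3.20% and 2.70% of the Dbt reads in control but 20.6 and 14.7 of its TPM. Counting the main transcript of each gene alone, Bckdha (36.1 TPM) lay between Dbt (31.1 TPM) and Bckdhb (43.5 TPM) in control, so that it was no longer the lowest, and it remained the highest in irradiated cells, with 93.3 TPM against 63.2 for Dld.

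The ratio between the E1 subunits, taken within each library, shows this shift most directly. There was 0.663 and 0.687 of Bckdha TPM for each unit of Bckdhb TPM in control libraries, and 2.08, 1.68 and 1.58 in irradiated libraries 1, 2 and 3. The ratio was below 1 in both controls and above 1 in all 3 irradiated libraries, 2.62-fold higher by geometric means. Between main transcripts alone it was 0.717 and 1.01 in control and 2.33, 1.81 and 1.74 in irradiated libraries, again without overlap. Bckdha over Dbt was 0.684 and 0.699 in control and 2.67 to 3.44 in irradiated libraries. Between main transcripts alone it was 1.11 and 1.22 in control, above rather than below 1, and 3.61 to 5.69 in irradiated libraries. Dbt over Bckdhb, both not called on counts, was 0.969 and 0.983 in control and 0.584 to 0.628 in irradiated libraries. Main transcripts alone gave 0.643 and 0.829 in control and 0.409 to 0.482 in irradiated libraries for Dbt over Bckdhb. Dbt has a read-weighted length of 3210 bases and Bckdhb 1463 bases. The part of transcript length in that ratio was not tested. In bulk RNA, fewer cells that express a gene and less RNA of it per cell cannot be told apart.

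**Figure D2:**
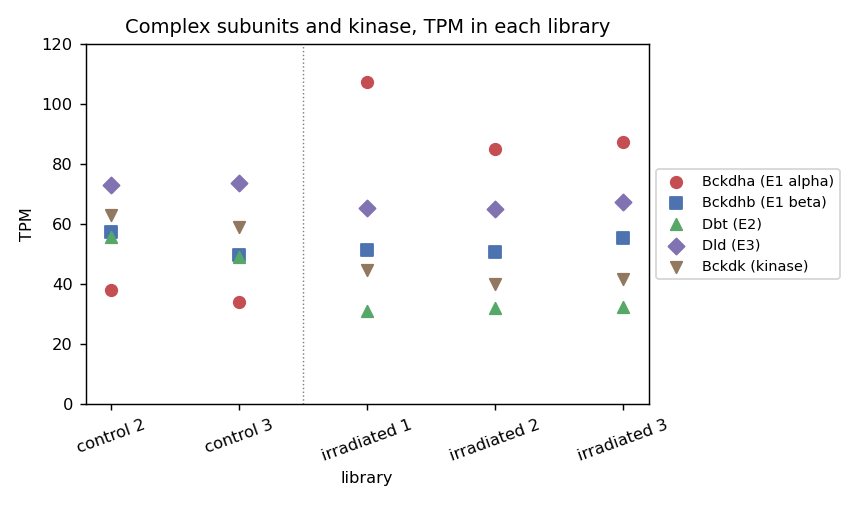
TPM, a level scaled for transcript length and summed over the transcripts of a gene, of the 4 subunit genes and the kinase gene Bckdk in each library, with controls left and irradiated libraries right of the dotted line. Bckdha is the lowest of the 5 in both controls (34.2 and 38.1 TPM) and the highest in all 3 irradiated libraries (85.2 to 107 TPM).

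Neither regulator of the complex was called in edgeR or DESeq2. Bckdk (ENSMUSG00000030802, chr7:127904082-127910221, plus strand), the inhibitory kinase, had 48.6 and 49.5 CPM in control and 51.5, 50.9 and 44.9 CPM in irradiated libraries. The groups overlapped, and the log2 fold change was 0.000699 with a standard error of 0.14, an interval from −0.33 to 0.33 and an adjusted p of 0.9974 in edgeR, while on log2(TPM + 1) with limma it was called lower (−0.52, adjusted p 0.04768). Ppm1k (ENSMUSG00000037826, chr6:57506502-57535468, minus strand), the activating phosphatase, had 23.2 and 21.5 CPM in control and 19.2, 16.2 and 19.4 CPM in irradiated libraries. All irradiated values lay below the controls, with a log2 fold change of −0.29, a standard error of 0.18 and an adjusted p of 0.2648 in edgeR.

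Set against its substrate, the kinase transcript was relatively lower in irradiated cells. On counts Bckdk had a log2 fold change of 0.000699 and Bckdha 1.65, so there this restates the rise of Bckdha. Bckdk over Bckdha was 1.66 and 1.73 by TPM in control libraries and 0.418, 0.472 and 0.476 in irradiated libraries, without overlap of the groups. Between main transcripts alone the same ratio was 0.325 and 0.357 in control and 0.125 to 0.157 in irradiated libraries, so the drop was seen on either count but which of the transcripts was the more abundant in control cells depended on it. Bckdk over Ppm1k, the balance of the regulators, was 7.90 and 4.64 in control and 6.43 to 8.10 in irradiated libraries, and the groups overlapped. Between main transcripts alone it was 1.55 and 1.66 in control and 2.25 to 3.06 in irradiated libraries, all above the controls, so neither its level nor the overlap of the groups is stable to how transcripts are counted.

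The estimates for the aminotransferases had opposite signs, and neither gene was called in edgeR or DESeq2. Bcat1 was called lower on log2(TPM + 1) with limma. Bcat1 (ENSMUSG00000030268, chr6:144993835-145076184, minus strand), the cytosolic enzyme, was the gene of the 8 with the most TPM in both controls. It had 116 and 150.0 CPM in control and 122, 99.0 and 112 CPM in irradiated libraries. The groups overlapped, since irradiated library 1 lay between the controls, and the log2 fold change was −0.26 with a standard error of 0.17 and an adjusted p of 0.2816 in edgeR. Bcat2 (ENSMUSG00000030826, chr7:45570153-45589711, plus strand), the mitochondrial enzyme, had 17.9 and 20.3 CPM in control and 22.5, 31.9 and 22.7 CPM in irradiated libraries. All irradiated values were above the controls, library 2 by far the most, with a log2 fold change of 0.43, a standard error of 0.21 and an adjusted p of 0.1702 in edgeR. Bcat1 TPM was 5.57 and 5.20 times Bcat2 TPM in control and 3.55, 2.26 and 3.33 times in irradiated libraries. Between main transcripts alone it was 3.34 and 5.96 times in control and 2.99, 1.74 and 2.69 times in irradiated libraries, where the nearest values of the groups lay far closer than the controls did. The cytosolic form led in every library on either count.

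Counted by overlap alone, 4 of the 8 genes (Bckdha, Bckdhb, Dld and Bcat2) had all irradiated CPM above both controls, beside 30.1% of all tested genes. For 2 of the 8 (Dbt and Ppm1k) all irradiated CPM lay below both controls, beside 29.3% of all tested genes.

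Fold changes across all genes ran with transcript length. The tenth of tested genes with the shortest transcripts had a median log2 fold change of 0.85, and the tenth with the longest had −0.82. The 8 genes span much of that range, from Bckdhb with 1463 bases to Ppm1k with 5515 bases. The median of Bckdha's own length class (1639 to 2048 bases) was 0.40, leaving Bckdha 1.26 above it on the log2 scale. Bcat2, in the same class, lay 0.03 above that median. Bckdhb lay 0.31 below the median of its class, Dbt 0.30 below, Bcat1 0.29 below and Bckdk 0.13 below, while Dld lay 0.21 and Ppm1k 0.14 above theirs. Length-trend offsets remove, in each library, a spline on transcript length of log2 CPM centred on each gene's mean. With these offsets, Bckdha had a log2 fold change of 1.32 and an adjusted p of 0.02947 in edgeR. Ppm1k turned to 0.20 and Bckdhb to −0.23, neither called. Under those offsets 340 genes were called higher and 256 lower.

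**Figure D3:**
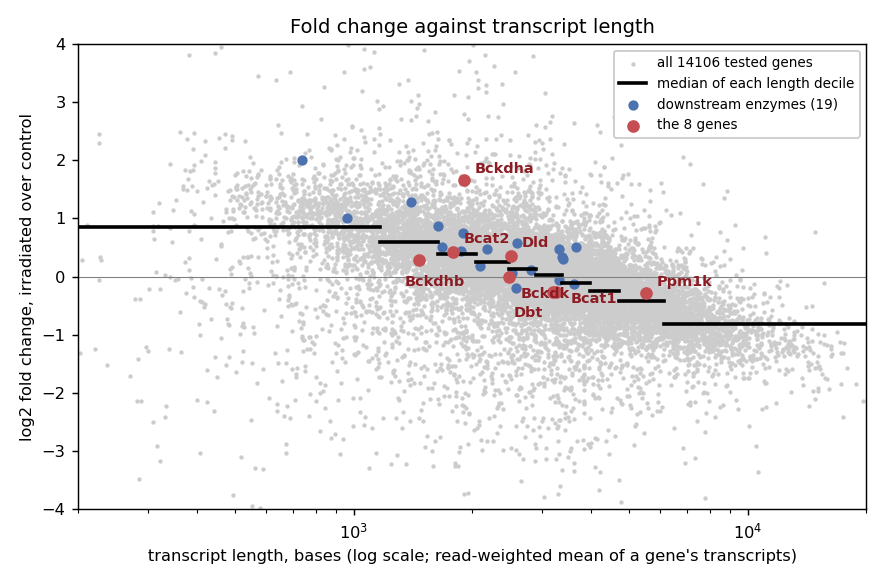
Log2 fold change of irradiated over control against transcript length (log axis) for all 14106 tested genes in grey, with black bars at the median of each length decile, the 8 genes in red and the 19 downstream enzymes in blue; genes outside the axis limits are not drawn. The medians fall from 0.85 in the shortest to −0.82 in the longest decile, and Bckdha lies 1.26 above the median of its own decile.

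Across 16 other ways of processing the data, Bckdha was higher and called in every one, with log2 fold changes from 1.21 to 1.78 and adjusted p from 2.2e-14 (DESeq2) to 0.04392 (edgeR). The larger of those p came without control 2, where a single control remained. The other 7 genes were called in at most 1 of the 16. Bckdk changed sign in 11, Bckdhb in 3, Ppm1k in 2 and Dld in 1 of them, so no direction is given for these 4. On log2(TPM + 1) with limma, Dbt (−0.70), Bcat1 (−0.60) and Bckdk (−0.52) were called lower, with adjusted p of 0.02692, 0.03401 and 0.04768. That scale moves the median of all genes by −0.26, and relative to the median the differences were −0.45, −0.36 and −0.28.

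**Figure D4:**
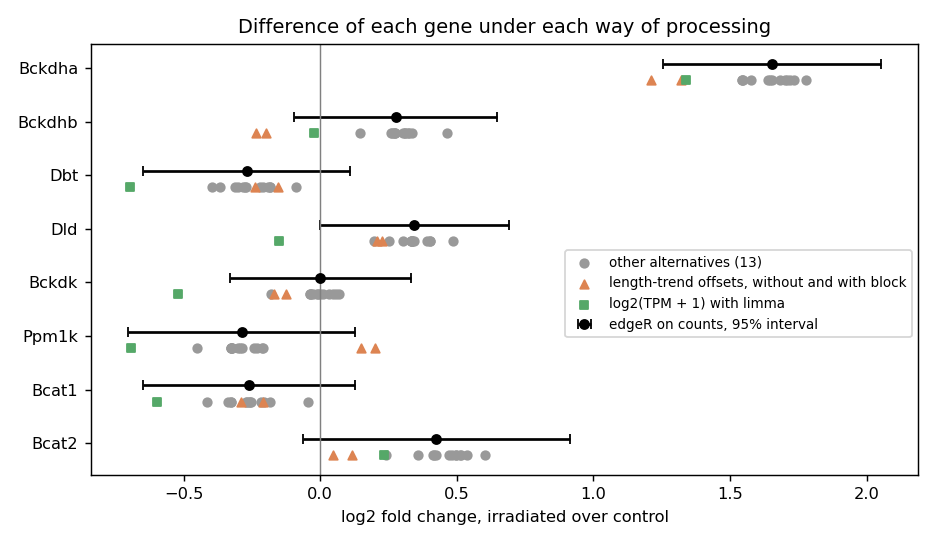
Log2 fold change of irradiated over control for each of the 8 genes, with the edgeR estimate and its 95% interval in black, and the estimates of 16 alternatives on the line beneath it. Every Bckdha estimate lies between 1.21 and 1.78, while the estimates of Bckdhb, Dld, Bckdk and Ppm1k fall on both sides of 0.

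The files also divide each gene's reads among its transcripts. Of Bcat2's reads, 12.5% and 13.8% in control libraries were assigned to Bcat2-206, a transcript annotated as retaining an intron, and 0.802%, 1.32% and 2.07% in irradiated libraries. These were 64.2 and 74.7 reads in control and 4.52, 9.21 and 12.9 reads in irradiated libraries, so the groups did not overlap while reads on the main coding transcript Bcat2-201 were 391 and 338 and then 501, 618 and 554. Over all 8 genes, transcripts annotated as not coding took 2.90% and 1.47% of the reads in control and 0.431% to 0.644% in irradiated libraries. In Bcat1, the 7833-base transcript Bcat1-201 took 26.3% and 13.7% of the reads in control and 10.8% to 16.8% in irradiated libraries, and the groups overlapped. Bckdk was divided mainly between a transcript of 3405 bases, with 43.6% and 41.1% of its reads in control and 53.8% to 57.5% in irradiated libraries, and one of 1792 bases, with 34.9% and 46.0% and then 29.0% to 36.3%. These shares are Salmon's estimates for transcripts that overlap, no test was run on them, and the part of the libraries' length difference was not tested.

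Downstream of the complex, 6 of 19 enzymes rose and 0 fell in irradiated cells at an adjusted p under 0.05 in edgeR, beside 12.7% and 13.0% of all tested genes. The lower count was 0 at an unadjusted p under 0.05 as well and 0 in DESeq2. The median log2 fold change was 0.47, against 0.02 over all tested genes, and for 12 of the 19 every irradiated library lay above both controls, beside 30.1% of all tested genes. The list was drawn up from the pathway with earlier results of these data known. It held 5 enzymes of the leucine arm with 1 called higher, 3 of the isoleucine arm with 2, 4 of the valine arm with 1, Echs1, which serves both isoleucine and valine, called higher, and 6 that handle propionyl-CoA with 1 called higher. With length-trend offsets 2 of the 19, Acadsb among them, were still called higher, beside 2.41% of all tested genes. The median was then 0.35 against 0.04 over all tested genes. Without control 2, which left 1 control, the estimates for Hsd17b10, Echs1 and Hibadh were 1.04, 0.73 and 0.71. Without irradiated 2, 3 of the 19 were called higher, beside 4.91% of all tested genes. On log2(TPM + 1) with limma, 3 were called higher and 1, the leucine enzyme Ivd, lower, against an estimate of 0.48 on counts.

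Hsd17b10, a dehydrogenase of the isoleucine arm, had 14.99 and 14.64 CPM in control and 29.7, 32.4 and 27.2 CPM in irradiated libraries. Its log2 fold change was 1.01 ± 0.18 (SE) with an adjusted p of 0.009986 in edgeR, but its transcripts are short (962 bases), and with length-trend offsets it was 0.35 (adjusted p 0.2041). All irradiated values lay above both controls.

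Echs1, the short-chain enoyl-CoA hydratase, had 27.4 and 34.0 CPM in control and 52.6, 62.8 and 51.9 CPM in irradiated libraries, a log2 fold change of 0.86 ± 0.17 (SE) with an adjusted p of 0.01314 in edgeR. Hibadh, the 3-hydroxyisobutyrate dehydrogenase of the valine arm, had 22.3 and 24.1 CPM in control and 38.4, 41.1 and 37.1 CPM in irradiated libraries, a log2 fold change of 0.75 ± 0.16 (SE) with an adjusted p of 0.01442. With length-trend offsets the estimates were 0.43 (adjusted p 0.08278) and 0.42 (adjusted p 0.09878). Also called higher, and named after their values were seen, were Acadsb, the short/branched-chain acyl-CoA dehydrogenase, at 0.50, which reads −0.62 (not called) on log2(TPM + 1), and Pccb, the beta subunit of propionyl-CoA carboxylase, at 0.47. Mccc1, Mmut and Mmaa had estimates below 0, from −0.20 to −0.05, and none was called. Mcee, the methylmalonyl-CoA epimerase, had the largest estimate at 2.004 with a standard error of 0.72, from 0.315 and 1.76 CPM in control and 2.43 to 6.08 CPM in irradiated libraries, and was not called (adjusted p 0.07318).

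**Figure D5:**
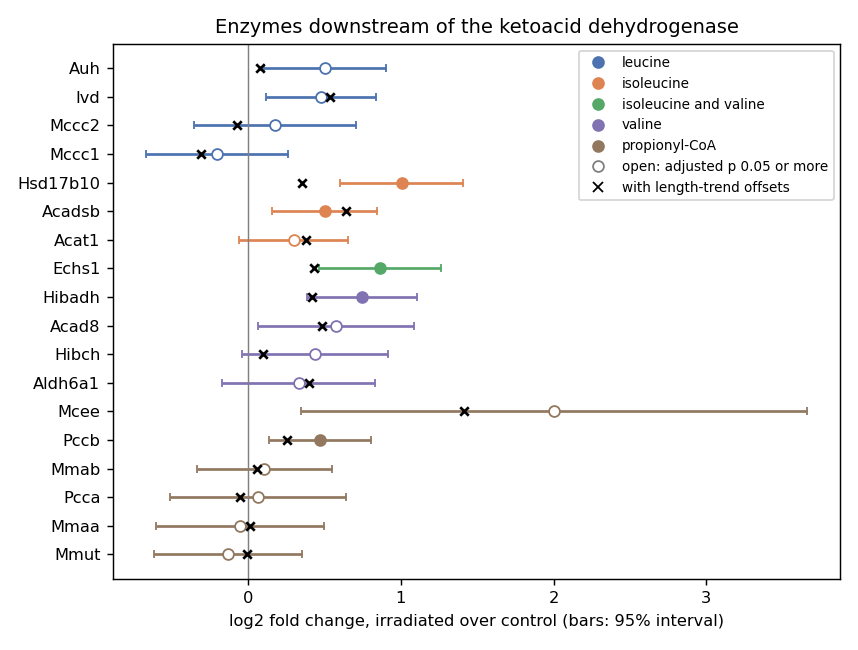
Log2 fold change of irradiated over control with its 95% interval for 18 of the 19 enzymes that act after the ketoacid dehydrogenase, colored by the amino acid arm they serve, filled where the adjusted p was under 0.05, with crosses at the estimates under length-trend offsets. Of the 18 estimates drawn 15 lie above 0, and the 5 filled points are Acadsb, Hsd17b10, Echs1, Hibadh and Pccb.

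Entry of branched-chain amino acids into the cell and mitochondria was represented by 7 transporter genes, of which 6 were tested. In edgeR 0 of the 6 were called in either direction, beside 12.7% higher and 13.0% lower of all tested genes. At an unadjusted p under 0.05 in edgeR, 1 was higher and 0 lower, and DESeq2 called 0. The median log2 fold change of the 6 was 0.15. Slc3a2, the heavy chain of the large neutral amino acid exchanger, had 98.4 and 124.8 CPM in control and 188.6, 139.8 and 134.9 CPM in irradiated libraries, with a log2 fold change of 0.47 and an adjusted p of 0.111 in edgeR. Slc6a15, a sodium-dependent neutral amino acid transporter, had a log2 fold change of 0.19 and an adjusted p of 0.3948. Glutamate, the other product of the aminotransferases, was represented by 8 genes of its handling, with 0 called (edgeR; 0 at an unadjusted p under 0.05 and 0 in DESeq2, with Gpt2 alone called lower on log2(TPM + 1) with limma) and a median of 0.02. Glud1, glutamate dehydrogenase, had an estimate of 0.29 (adjusted p 0.2024) and Got1, the cytosolic aspartate aminotransferase, 0.21 (adjusted p 0.3874).

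The sister complexes that share DLD or the lipoyl cofactor were represented by 14 genes, of which 13 were tested, 3 rose and 0 fell, beside 12.7% and 13.0% of all tested genes (edgeR; 1 lower at an unadjusted p under 0.05, 0 lower in DESeq2, and Ogdh lower on log2(TPM + 1) with limma). Their median log2 fold change was 0.15. Gcsh, the lipoyl carrier of glycine cleavage, rose by 0.82 on the log2 scale (adjusted p 0.01963 in edgeR). Lipt2, an enzyme of lipoyl attachment, rose by 1.45 (adjusted p 0.02909), from 1.61 and 2.63 CPM to 4.90 to 7.35 CPM. Pdhb, the E1 beta subunit of pyruvate dehydrogenase, rose by 0.62 (adjusted p 0.04769), while its partner Pdha1 had an estimate of 0.06 (adjusted p 0.8304). With length-trend offsets 0 of the 13 were called (2 higher and 0 lower at an unadjusted p under 0.05). Of all tested genes, that fit called 2.41% higher and 1.81% lower. With irradiated 2 left out 0 of the 13 were called higher, and with irradiated 1 left out 1 was, beside 4.91% and 5.95% of all tested genes. Without control 2, which left 1 control, the estimates for Gcsh, Lipt2 and Pdhb were 0.62, 1.16 and 0.46.

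Among the kinases and phosphatases of pyruvate dehydrogenase, the counterparts of Bckdk and Ppm1k, 6 of 7 were tested, 2 rose and 1 fell in edgeR, beside 12.7% and 13.0% of all tested genes. Pdk1, a kinase that turns pyruvate dehydrogenase off, had 138.1 and 114.0 CPM in control and 235.5, 166.1 and 197.2 CPM in irradiated libraries, a log2 fold change of 0.66 (adjusted p 0.03663), and 1.05 with length-trend offsets (adjusted p 0.03093). Pdk2 rose by 0.70 (adjusted p 0.04965), and had an estimate of 0.51 with length-trend offsets (adjusted p 0.15). Pdp2, a catalytic subunit of the phosphatase and not its only one, fell by 0.97 on the log2 scale, from 100.7 and 73.8 CPM to 34.0 to 58.2 CPM (adjusted p 0.02376). It has a long transcript of 5692 bases, and with length-trend offsets its estimate was −0.45 (adjusted p 0.1744). Higher calls in this list went to 0 without irradiated 1 or irradiated 3 and to 1 without irradiated 2. In those fits 5.95%, 11.2% and 4.91% of all tested genes were called higher. The lower call went to 0 without irradiated 1 or irradiated 2, beside 6.5% and 5.98% of all tested genes. With the replicate block both counts were 0, beside 4.27% higher and 3.5% lower of all tested genes. Without control 2, which left 1 control, the estimates for Pdk1, Pdk2 and Pdp2 were 0.83, 0.55 and −0.70. Of 10 transcriptional regulators tied to amino acid and mitochondrial metabolism, 9 were tested, 1 rose and 0 fell, beside 12.7% and 13.0% of all tested genes (edgeR; 2 higher in DESeq2, 1 lower at an unadjusted p under 0.05, and 0 lower in DESeq2). That gene was Mycl, the MYC family member expressed in this SCLC subtype, with 5327 and 5397 CPM in control and 8229 to 9068 CPM in irradiated libraries, a log2 fold change of 0.70 and an adjusted p of 0.01664 in edgeR. On log2(TPM + 1) with limma its estimate was 0.34 (adjusted p 0.3956), and without control 2, which left 1 control, it was 0.71. With irradiated 1 left out 0 of the 9 were called higher, and with irradiated 3 left out 2 were, beside 5.95% and 11.2% of all tested genes. Hif1a had 199.3 and 198.7 CPM in control and 136.4 to 168.1 CPM in irradiated libraries (log2 fold change −0.40, adjusted p 0.08033 in edgeR). It was called lower on log2(TPM + 1) with limma. Its transcript is long (4654 bases), and with length-trend offsets its estimate was −0.06 (adjusted p 0.7938 in edgeR).

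Genes most like Bckdha were found by the distance between log2 CPM profiles over the 5 libraries, each centred on its mean. The nearest were Ace, the angiotensin-converting enzyme, at a distance of 0.188, Bmf, a pro-apoptotic BH3-only gene, at 0.235, the pseudogene Gm9157 at 0.246, Dhrs7 at 0.286 and the pseudogene Rps23-ps1 at 0.296. The pseudogenes are uncertain, since their reads may belong to near-identical parent genes. Nearest to Bcat1 were Pofut1 at 0.0924, Magi1 at 0.109, Gnl3l at 0.119, Ccdc14 at 0.120 and Aqr at 0.121, with read-weighted lengths of 3995 to 6072 bases against 3262 for Bcat1. Ranked by Pearson correlation in place of distance, 0 of these 5 genes were shared for either reference. All these profiles come from the same 5 libraries.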

How the data were processed

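KP1 bulk RNA sequencing libraries (2 control, 3 irradiated, grouped by the sample labels) were analysed, and the study's 6 single-cell samples were not used here. Per the labels, the authors quantified reads against mm10 with Salmon 0.8.2 and deposited, for each transcript, estimated counts of reads, which are not scaled, and TPM, together with transcript lengths and effective lengths. The authors used DESeq2 1.22.2 and, per the paper, corrected p with Independent Hypothesis Weighting. The annotation release and library strandedness are not given in the sources used here.

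Transcripts were matched by identifier without version to GENCODE M21 (112762 of 113116, holding 99.87% to 99.88% of the reads), summed to genes and rounded. Irradiated and control libraries were compared over all 14106 genes passing filterByExpr (minimum count 10) with edgeR 4.0.16 in R 4.3.3 (TMM, quasi-likelihood test, Benjamini-Hochberg), without a replicate block. CPM uses TMM-scaled library sizes, and profiles of likeness used log2 CPM with a prior count of 2. Standard errors and 95% intervals come from this fit and cover the spread between libraries. Alternatives used DESeq2 1.42.0 and limma 3.58.1. A gene's length is the mean of its transcripts' lengths weighted by reads, and the length trend was a spline with 5 degrees of freedom. The scripts were tested on simulated data. Near-identical transcripts (95% identity over 80% of the main transcript, blastn 2.17.0) of another gene were found for none of the 8 genes. Python 3.11.15, pandas 2.3.3 and matplotlib 3.10.9 made tables and plots.

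The 8 genes and the other lists were chosen with earlier results of these data known. Named besides the 8 were, in each other list, the 4 genes with the smallest p among those with an adjusted p under 0.05, or the 2 with the smallest p where fewer than 2 passed, and the 5 genes nearest to Bckdha and to Bcat1; genes named outside this rule are said to be. A fold change on log2(TPM + 1) understates the change of low genes. The values of some list members are not reported here, though the counts of their lists include them.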

Additional observations from a re-analysis of the deposited data

How the results depend on the processing

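Bckdha was the 1 of the 8 genes called higher, and 0 were called lower, under DESeq2, RLE and upper-quartile factors, no filter on low counts, protein-coding genes alone, length-trend and effective-length offsets, the replicate block with and without those length-trend offsets, the study's thresholds, and with each library left out in turn; without a control, the lone control is assumed to vary like the irradiated group. On log2(TPM + 1) with limma, added after the data were seen, 3 of the 8 were called lower, Bckdk among them at −0.52. The 6 downstream enzymes called higher became 2 with length-trend offsets, 3 with the replicate block, 0 with the block and length-trend offsets together (5 at an unadjusted p under 0.05), 3 on log2(TPM + 1) (with 1 lower) and 0 at the study's thresholds, and ranged from 0 (without control 2) to 6 with a library left out, with 3 without irradiated 2. The cause was not tested. TPM of the main transcript alone moved by more than the spread between libraries for Bcat1, Bcat2, Bckdhb, Dbt, Dld and Bckdk, and the 5 genes most like Bckdha or Bcat1 were all replaced under Pearson correlation. Libraries of the same number did not deviate together (correlation of −0.196 over genes between control 2 minus 3 and irradiated 2 minus 3). The average read came from transcripts of 5463 and 4729 bases in controls 2 and 3, but of 3625 and 3998 in irradiated 2 and 3. These length differences run opposite ways, so the correlation cannot decide whether the numbers pair the samples. With the replicate block 602 genes were called higher and 494 lower, against 1786 and 1827 without it. With the numbers crossed, added after the data were seen, 3026 and 2670 genes were called, with 3 of the 8 genes and 10 downstream enzymes higher. Counts of all calls were 340 higher and 256 lower with length-trend offsets, 142 and 117 with block and offsets, 693 and 2678 on log2(TPM + 1), and 95 and 175 without control 2, 832 and 909 without irradiated 1 and 684 and 834 without irradiated 2. The 5 libraries limit the precision of the 7 genes not called: their intervals reach log2 fold changes of 0.92 (Bcat2) and −0.70 (Ppm1k).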
